A study of Mus musculus with 3 samples.

Results

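The genes described here carry out DNA replication and the entry into S phase. They were chosen by name, from what their products are known to do in origin licensing, at the replication fork, in nucleotide supply and at the switch from G1 to S phase. There were 48 such genes, covered by 54 probes, and 47 of them were among the 21743 genes and transcripts tested.

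Cells of 3 mmtv-PyMT mouse tumors, numbered 1, 2 and 3, were each put into primary culture with or without RANKL (RL), the ligand that activates the receptor RANK. In these mice the polyoma middle T oncogene is driven by the mmtv promoter, which is active in mammary epithelium, so the cultures model oncogene-driven luminal mammary tumors. Each tumor gave 1 culture with RL for 24 h and 1 untreated control culture, and the RNAs of this pair shared a 2-color Agilent array, so there were 3 arrays and 6 channels. The ages of the mice at tumor collection are not given in the sources used here; the methods describe transplant hosts as females aged 6 to 10 weeks at implantation. The methods describe a growth medium with 5% fetal bovine serum, insulin, EGF and cholera toxin. If all cultures, treated and control, grew in it, the control cells were also under growth stimulation. The labels give the RL dose as 1000 µg/mL and the methods give 1 µg/mL. The methods also describe acinar cultures on matrigel of cells from tumor transplants, with RL added a day after plating, whereas the labels give primary tumor culture and mention no matrigel, transplant or RANK genotype. RL was in the Cy3 channel in tumors 1 and 3 and in the Cy5 channel in tumor 2. All values below are log2 ratios of RL over control or log2 normalized intensities, and n = 3 tumors unless stated.

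Replication starts from origins that are licensed in G1, when the origin recognition complex, Cdc6 and Cdt1 load the ring-shaped Mcm2 to Mcm7 helicase onto DNA. In S phase, kinases together with Mcm10, Cdc45 and the GINS complex turn the helicase on. Polymerases, tethered to DNA by the sliding clamp Pcna, copy the strands, and geminin (Gmnn) keeps Cdt1 from licensing an origin again. Many of these genes are transcribed at the G1/S boundary by E2F factors, and in mammary epithelium RANK signaling is known to drive progenitor cells to proliferate.

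After 24 h of RL, no replication or S phase gene passed an adjusted p of 0.05 in limma, and the lowest adjusted p among the 47 was 0.476, for E2f1. In the same test 6 of all genes passed, which is 0.0276%. At an unadjusted p under 0.05, 8 members were higher with RL and 0 were lower, or 17.0% of the members higher, where the background over all genes tested was 3.50% higher and 3.58% lower. The 8 were Cdt1, Gmnn, Mcm6, Gins1, Pola1, Fen1, E2f1 and Uhrf1. In all 3 tumors 15 members (31.9%) were higher with RL, against 14.1% of all genes with a value on every array, and 0 were lower in all 3, against 13.6%. With each array centered on its median in place of loess, 0 members were higher in all 3 tumors. Relative to the median of all genes these were then 12 members, against 7.34% of all genes. A rank product, the test named in the methods, called 0 members and 0.405% of all genes at a proportion of false positives under 0.05. With a dye term in limma, 1 member passed the adjusted p of 0.05, Gmnn, and so did 1.31% of all genes. These counts are descriptions and carry no test of the list.

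The differences were small, and with the main normalization most lay above 0. The mean over the tumors was above 0 for 41 of the 47 members (87.2%), as it was for 49.1% of all genes. Their median log2 change was 0.09, against −0.002 over all genes, and single members ran from −0.10 for Mcm5 to 0.30 for Mcm6. This median came mainly from tumor 1, where it was 0.22 with 43 members above 0 (91.5%, against 47.9% of all genes). It was 0.02 in tumor 2, with 27 members above 0 (57.4%, against 52.7% of all genes). In tumor 3 it was 0.07, with 32 above 0 (68.1%, against 48.3% of all genes). Without tumor 1 the median was 0.04. When each array was centered on its median in place of loess, the median of all genes moved to −0.11 and that of the members to −0.06, so that relative to all genes the members stood at 0.05. The means of 35 of the 47 members were then below 0, against 6 with loess, and those of 11 were below the median of all genes. By tumor this was then 0.05 in tumor 1, 0.19 in tumor 2 and −0.03 in tumor 3, so the order of the tumors was not the same under both normalizations. In bulk RNA, more or fewer cells in S phase and more or less of a transcript in each cell cannot be told apart.

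**Figure D1:**
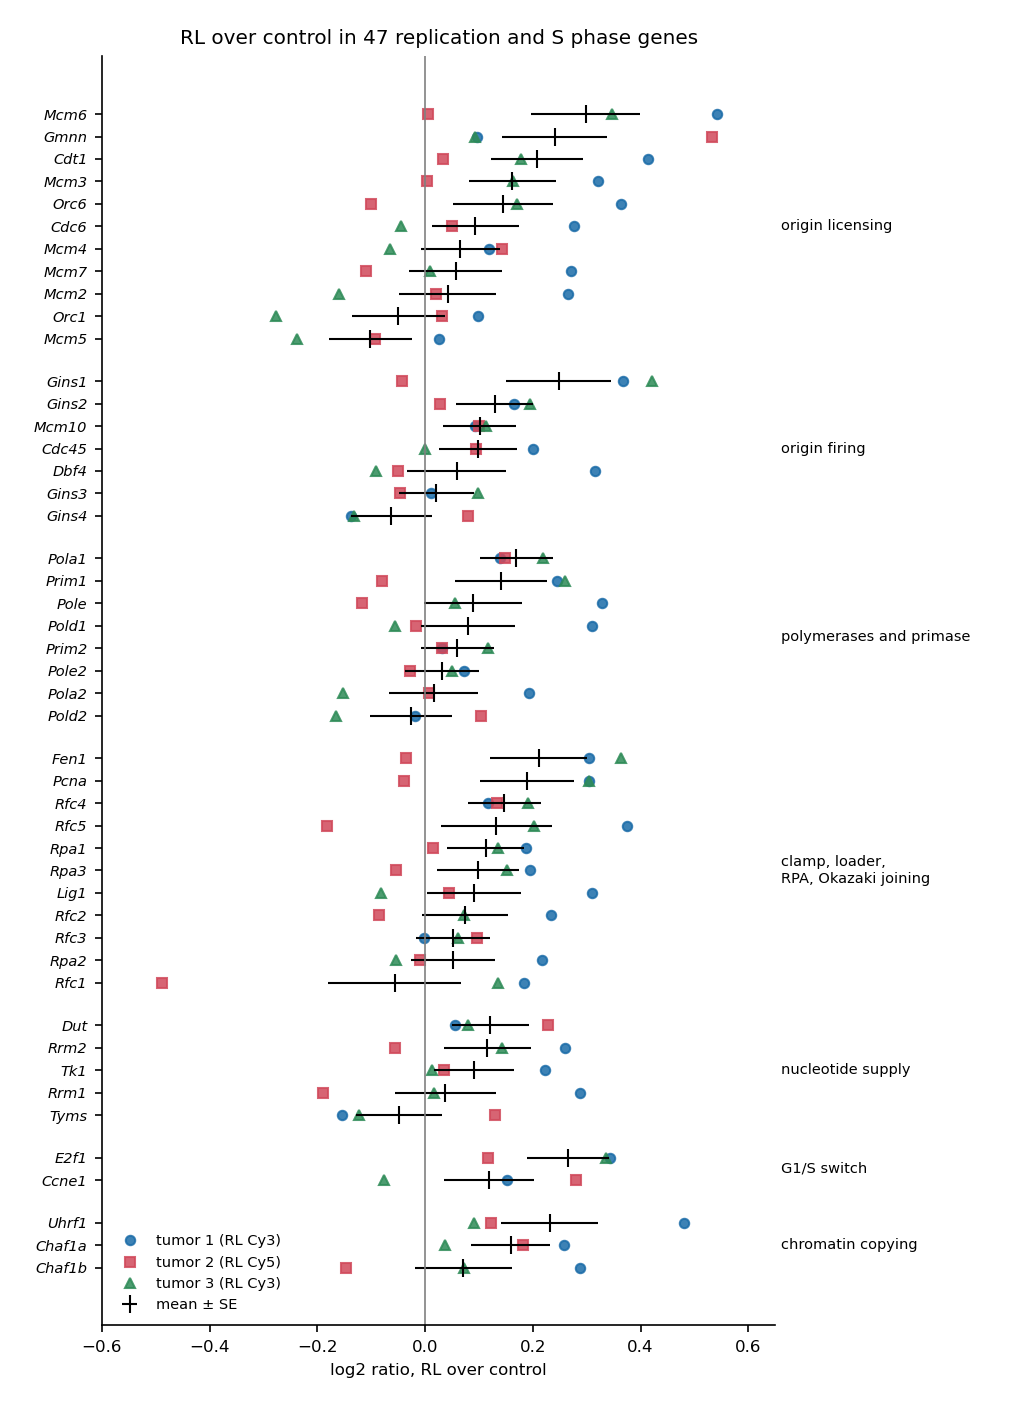
Log2 ratio of RL over control (x axis) for 47 members, grouped by role; symbols are the 3 tumors, and the bar is the mean with its SE. The means run from −0.10 for Mcm5 to 0.30 for Mcm6. Tumor 1 lies above 0 for 43 members (91.5%, all genes 47.9%) and tumor 2 for 27 (57.4%, all genes 52.7%). With arrays centered on their median the members' median moves from 0.09 to −0.06, which is 0.05 relative to the median of all genes.

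Origin licensing held both ends of this range. Mcm6, a subunit of the helicase ring, had log2 intensities of 14.36, 15.13 and 14.69 in the control cultures of tumors 1, 2 and 3 and of 14.90, 15.13 and 15.03 in the RL cultures. Its log2 ratios were thus 0.54 in tumor 1, 0.01 in tumor 2 and 0.35 in tumor 3, with a mean of 0.30 (SE 0.10, adjusted p = 0.562 from limma). The levels of the control and RL cultures overlapped, and tumor 2 was as high in its control as in its RL culture. For Mcm5, of the same ring, the control levels were 12.28, 12.87 and 13.06 and the RL levels 12.30, 12.78 and 12.83. Mcm5 had the lowest mean of all members, −0.10 (SE 0.08), from 0.03, −0.09 and −0.24. Mcm3 had a mean of 0.16 (SE 0.08) and was above 0 in each tumor. Mcm2, Mcm4 and Mcm7 had means of 0.04, 0.07 and 0.06, each with 1 tumor below 0. With median centering these 3 means turned negative and, relative to all genes, lay at −0.006, −0.011 and −0.017.

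Gmnn, which encodes the inhibitor of Cdt1, had its largest ratio in tumor 2, where most members were near 0. Its control levels were 10.65, 11.12 and 10.90 and its RL levels 10.75, 11.66 and 10.99. The log2 ratios of 0.10, 0.53 and 0.09 gave a mean of 0.24 (SE 0.10, adjusted p = 0.684 from limma). With the dye term, which fits the Cy5 over Cy3 difference shared by the arrays, the log2 change was 0.31 with an adjusted p of 0.0187. That fit leaves 1 residual degree of freedom, which comes from tumors 1 and 3. Tumor 2, alone in its dye order and with the largest ratio of Gmnn, is fitted exactly. The p thus does not take in how far tumor 2 departs from the others. Cdt1, the loading factor that Gmnn blocks, had ratios of 0.41, 0.03 and 0.18 and a mean of 0.21 (SE 0.09). Orc1, the largest subunit of the origin recognition complex, had ratios of 0.10, 0.03 and −0.28, and Orc6 and Cdc6 had means of 0.14 and 0.09 with mixed signs. Of the 11 licensing genes, 11 were above 0 in tumor 1, 8 in tumor 2 and 6 in tumor 3. Of all genes, 47.9%, 52.7% and 48.3% were above 0 in tumors 1, 2 and 3.

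Promoter windows of RefSeq on GRCm38.p6, from 250 bases before to 50 bases after a start, were searched on both strands for E2F words, because E2F factors are known to act on many of these genes. The 4 words were TTTCCCGC, TTTGGCGC, TTTCGCGC and TTTGCCGC, and hits of different words can overlap. Of the members, 39 had a window, and 14 of these (35.9%) held at least 1 of the words, as did 2.6% of all 27025 genes with a window. The CHR word TTTGAA, named for cell cycle genes of later phases, was held by 6 of the 39 (15.4%) and by 20.2% of all genes, and the CCAAT box by 23 (59.0%) and 41.1%. The 14 members that held an E2F word had a median log2 change with RL of 0.08 and the 25 that held none had 0.10. A match is a description of the letters and not a binding site.

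Shown are the 200 bases before the start of the 3 members in which an E2F word lay wholly in this stretch and no RefSeq gene overlapped it, 5′ to 3′ on the strand of the gene, with the words in capitals. They are Mcm6 at chr1:128359706-128359905 on the minus strand, Gins3 at chr8:95633359-95633558 on the plus strand and Rfc3 at chr5:151651209-151651408 on the minus strand.
Mcm6: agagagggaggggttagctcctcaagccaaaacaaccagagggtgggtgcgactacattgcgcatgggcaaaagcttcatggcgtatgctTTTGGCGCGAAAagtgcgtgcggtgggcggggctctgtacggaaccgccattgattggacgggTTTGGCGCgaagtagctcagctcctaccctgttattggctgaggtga
Gins3: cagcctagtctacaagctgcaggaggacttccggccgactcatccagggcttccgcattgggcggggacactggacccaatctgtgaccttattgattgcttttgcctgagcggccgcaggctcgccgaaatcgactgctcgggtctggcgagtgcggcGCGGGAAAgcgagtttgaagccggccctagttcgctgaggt
Rfc3: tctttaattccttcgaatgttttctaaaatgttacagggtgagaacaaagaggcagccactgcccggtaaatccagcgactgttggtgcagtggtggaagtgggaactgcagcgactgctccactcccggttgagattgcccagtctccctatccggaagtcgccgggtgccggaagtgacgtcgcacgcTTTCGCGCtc
In Mcm6 the words start 110, 106 and 47 bases before the start site, and the first pair overlap. In Gins3 the word starts 41 bases and in Rfc3 10 bases before it. In the main setting Mcm6 had the highest mean log2 change of all members, whereas Gins3 and Rfc3 had means of 0.02 and 0.05. With the dye term Gmnn was above Mcm6 (0.31 against 0.22). Without tumor 1 E2f1 was above Mcm6 (0.23 against 0.18), and Gmnn, at 0.53 in tumor 2 and 0.09 in tumor 3, was above both. With median centering, relative to all genes, E2f1 was at 0.225 and Mcm6 at 0.206.

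Among the genes of origin firing, the subunits of the GINS complex, which joins Cdc45 and the Mcm ring into the active helicase, were spread from the top to the bottom of their group. Gins1 had control levels of 10.72, 11.65 and 10.99 and RL levels of 11.09, 11.61 and 11.41. It was higher with RL in tumors 1 and 3, by 0.37 and 0.42, and at −0.04 in tumor 2, with a mean of 0.25 (SE 0.10, adjusted p = 0.670 from limma). Gins4 had the opposite signs in each tumor, −0.14, 0.08 and −0.13, with a mean of −0.06 (SE 0.08). Gins2 had a mean of 0.13 and was above 0 in all 3 tumors. Mcm10, which helps to start the helicase, had ratios of 0.09, 0.10 and 0.11, closer together than the SD of 0.06 to 0.07 found between spots of 1 probe on 1 array. Cdc45 and Dbf4, the activator of the kinase Cdc7, had means of 0.10 and 0.06.

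Of the polymerase and primase genes, Pola1, the catalytic subunit of the polymerase that starts each new strand, was the most even. Its control levels were 10.63, 11.15 and 10.80 and its RL levels 10.77, 11.30 and 11.02. The ratios of 0.14, 0.15 and 0.22 gave a mean of 0.17 (SE 0.07, adjusted p = 0.681 from limma), and with the dye term the log2 change was 0.16. Pold2, a small subunit of polymerase delta, was lowest in the group with −0.02, 0.10 and −0.17 and a mean of −0.03 (SE 0.08). Prim2 was higher in all 3 tumors with a mean of 0.06, and Prim1, Pole, Pold1, Pole2 and Pola2 had mixed signs and means between 0.02 and 0.14.

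The clamp Pcna, which tethers polymerases to DNA, had control levels of 14.22, 14.65 and 14.25 and RL levels of 14.52, 14.61 and 14.55. It was 0.30 higher with RL in tumor 1, 0.30 higher in tumor 3 and at −0.04 in tumor 2 (mean 0.19, SE 0.09, adjusted p = 0.722 from limma). In its RL cultures tumors 1 and 3 came close to the level that tumor 2 had without RL. Fen1, the nuclease that trims Okazaki fragments, behaved alike with 0.30, −0.04 and 0.36 and had the highest mean of its group, 0.21 (SE 0.09). Lig1, which seals those fragments, had a mean of 0.09. The clamp loader was uneven. Its large subunit Rfc1 had control levels of 12.11, 12.65 and 12.20 and RL levels of 12.29, 12.16 and 12.34, and its ratio of −0.49 in tumor 2 was the lowest single value of any member, beside 0.18 and 0.14 in tumors 1 and 3 (mean −0.06, SE 0.12). Rfc4 had a mean of 0.15 (SE 0.07) and was above 0 in all 3 tumors by its brighter probe, whereas its second probe was at −0.09 in tumor 2. Rfc5 had 0.38, −0.18 and 0.20, and the means of Rfc2 and Rfc3 were 0.07 and 0.05. The single-strand binding genes Rpa1, Rpa2 and Rpa3 had means of 0.11, 0.05 and 0.10.

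**Figure D2:**
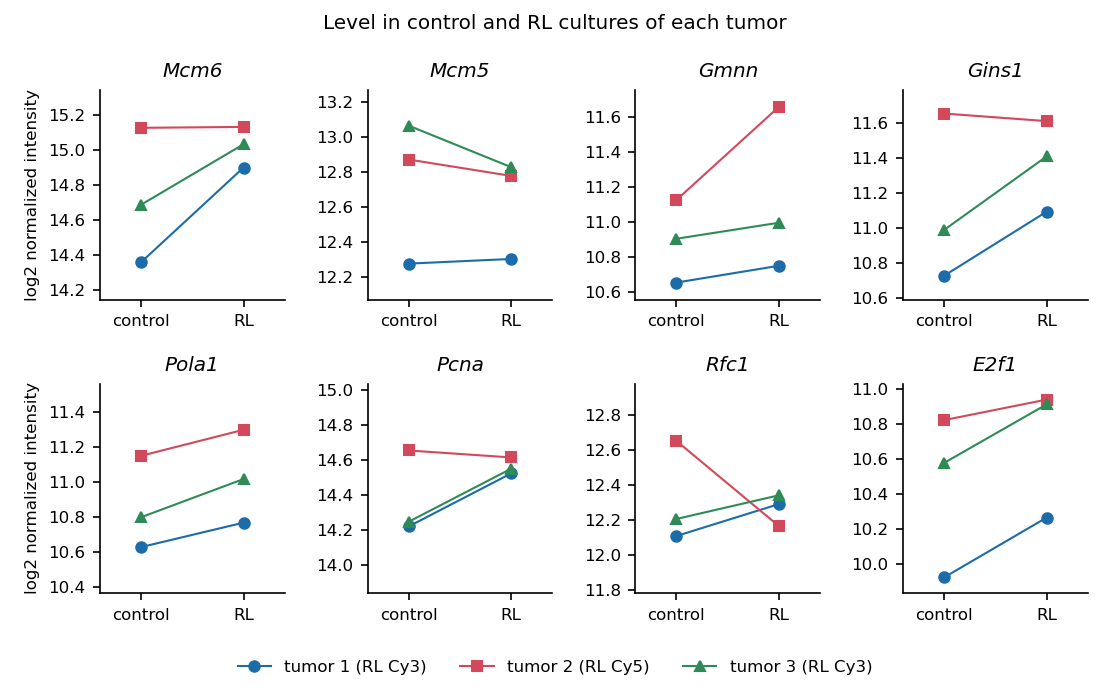
Log2 normalized intensity (y axis, 1.2 units high in each panel, not starting at 0) of 8 members in the control and RL culture of each tumor, joined by a line per tumor. For Mcm6, Gins1 and Pcna the lines of tumors 1 and 3 go up and that of tumor 2 is flat, Gmnn goes up most in tumor 2, Rfc1 goes down in tumor 2 alone, and Pola1 and E2f1 go up in each tumor.

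In nucleotide supply, the highest mean was that of Dut, which clears dUTP, with 0.05, 0.23 and 0.08 and a mean of 0.12 (SE 0.07). Tyms, which makes thymidylate, had −0.15, 0.13 and −0.12 and the lowest mean, −0.05 (SE 0.08). The ribonucleotide reductase subunits Rrm1 and Rrm2 had means of 0.04 and 0.12, both with tumor 2 below 0, and the salvage kinase Tk1 had 0.09.

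E2f1, a transcription factor of the G1/S switch, had the lowest p of all members. Its control levels were 9.92, 10.82 and 10.58 and its RL levels 10.27, 10.94 and 10.91. It was higher with RL in each tumor, by 0.34, 0.12 and 0.33, with a mean of 0.26 (SE 0.08, 95% confidence interval from 0.09 to 0.44 before adjustment), and this did not pass the adjustment over all genes. The spread between tumors in the control cultures was wider than this difference. Cyclin E1 (Ccne1), the partner of Cdk2 at S phase entry, had control levels of 11.33, 11.79 and 11.89 and RL levels of 11.49, 12.07 and 11.81. Its ratios were 0.15, 0.28 and −0.08, with a mean of 0.12 (SE 0.08), and its second probe gave 0.28, −0.03 and 0.10, so the probes did not agree on which tumor was low. Cyclin E2 (Ccne2) has 1 probe on the array, which was not well above background in any of the 6 channels and was not tested.

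Of the 3 genes of chromatin copying 0 passed the adjusted p of 0.05 in limma. Uhrf1, which recognizes newly copied DNA that is methylated on 1 strand, had ratios of 0.48, 0.12 and 0.09 and a mean of 0.23 (SE 0.09, adjusted p = 0.670 from limma). A dimmer probe of Uhrf1 gave 0.19, 0.06 and 0.11. The chromatin assembly subunits Chaf1a and Chaf1b had means of 0.16 and 0.07. Chaf1b was at −0.15 in tumor 2, its mean without tumor 1 was −0.04, and its dimmer probe gave a mean of 0.18. Cdc6, Rfc4 and Ccne1 also had a second probe above background, with means of 0.08, 0.15 and 0.12, against 0.09, 0.15 and 0.12 from the brighter probe. The means hide differences by tumor. The brighter and second probe differed in sign for Cdc6 in tumor 1 (0.28 and −0.11) and tumor 3 (−0.05 and 0.05), for Rfc4 in tumor 2 (0.13 and −0.09) and for Ccne1 in tumor 2 (0.28 and −0.03) and tumor 3 (−0.08 and 0.10).

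Tumor 2, the only array with the other dye order, had ratios unlike those of tumors 1 and 3, and with 1 such array a difference of the dyes and one of the tumor cannot be told apart. Across 21721 genes, which are not independent replicates, Pearson's r of the log2 ratios was 0.453 between tumors 1 and 3, which share the dye order, and −0.112 and −0.109 between tumor 2 and tumors 1 and 3. Across the 47 members it was 0.467, −0.290 and −0.124 for the same pairs. Without tumor 2, 7 members passed an adjusted p of 0.05 in limma, Mcm6, Gins1, E2f1, Fen1, Pcna, Cdt1 and Rfc5, all of them higher, and so did 6.82% of all genes. On those 2 arrays RL is in Cy3 throughout, so RL and the dye cannot be told apart there. In tumor 2 the same 7 genes had log2 ratios between −0.18 and 0.12. The reference gene Actb had −0.65, 0.57 and −0.70 in tumors 1, 2 and 3, and the median of 12 reference genes was −0.14, 0.14 and −0.13. Their means ran from −0.26 for Actb to 0.06 for Hprt. With a dye term the members' median was 0.08, and the median dye coefficient, Cy5 over Cy3, was −0.05.

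**Figure D3:**
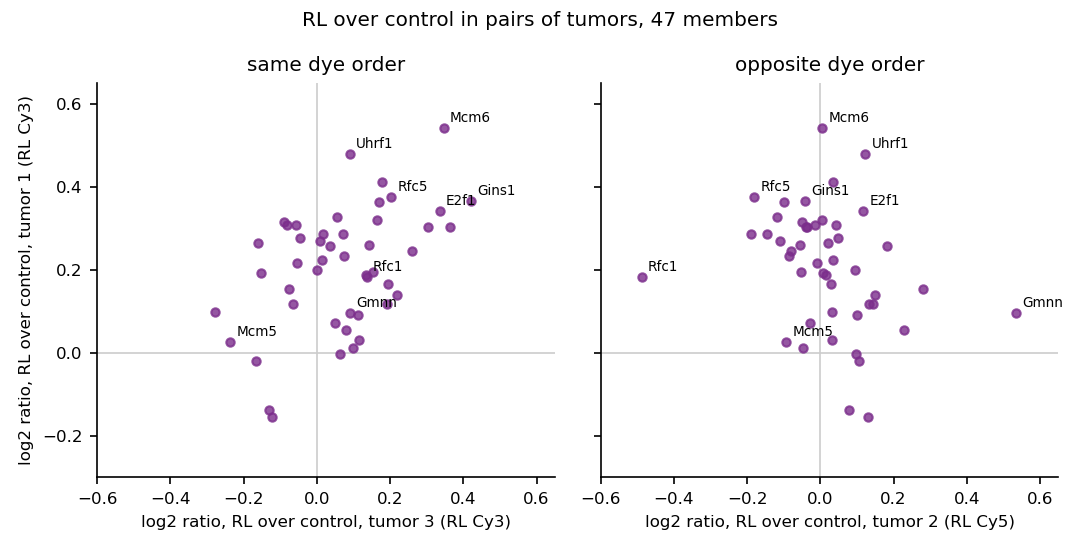
Log2 ratio of RL over control of 47 members in tumor 1 (y axis) against tumor 3 (left, same dye order) and tumor 2 (right, opposite dye order); each point is a gene. Pearson's r over the points is 0.467 on the left and −0.290 on the right, and Gmnn and Rfc1 lie farthest out along the axis of tumor 2.

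Other genes of the cell cycle showed where the members stand. Of 31 other replication genes 30 were tested, and of these 0 passed the adjusted p of 0.05 in limma, 1 was higher at an unadjusted p under 0.05, and the median log2 change was 0.06, from −0.13 for Pold4 to 0.22 for Ticrr. For 25 mitosis genes the median was 0.10, with 0.22, 0.002 and 0.03 in tumors 1, 2 and 3, much like the members by tumor, and 0 passed, with 3 higher at an unadjusted p under 0.05. The mitotic kinesin gene Cenpe was highest with 0.17, 0.27 and 0.20, and Cenpf was lowest with a mean of −0.10. With median centering these lists stood at 0.03 and 0.06 relative to all genes. Among 29 regulators of G1 and cell cycle entry the median was −0.03, and 0 passed, with 1 higher and 1 lower at an unadjusted p under 0.05. Its ends were E2f7, a repressor among the E2F factors, with a mean of 0.19, and Rbl2, a pocket protein known from resting cells, which was at −0.18, −0.24 and −0.21 (mean −0.21, SE 0.07, adjusted p = 0.551 from limma).

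**Figure D4:**
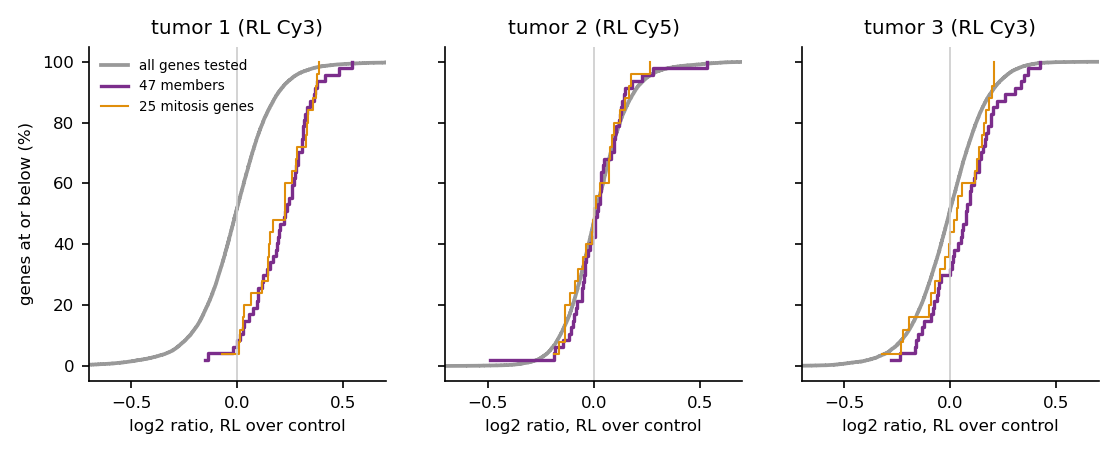
Share of genes in percent (y axis) at or below a log2 ratio of RL over control (x axis) in each tumor, for all genes tested, the 47 members and 25 mitosis genes. The members' curve lies to the right of that of all genes in tumor 1 (median 0.22), close to it in tumor 2 (0.02) and between these in tumor 3 (0.07); with median centering in place of loess the members' medians relative to all genes are 0.05, 0.19 and −0.03.

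Other genes of the same cultures differed more with RL. All 7 genes of the RL response list, feedback and target genes of NF-κB, were higher in all 3 tumors, with a median of 0.63, from 0.44 for Birc3 to 0.77 for Nfkbia. In limma 0 of the 7 passed the adjusted p of 0.05 (lowest 0.228) and 7 were higher at an unadjusted p under 0.05. With the dye term 7 passed the adjusted p, and by rank product 4 passed, Nfkbia, Nfkbie, Traf1 and Nfkb2. By tumor the median of this list was 1.15, 0.47 and 0.27, and without tumor 1 it was 0.37. In each of the tumors all 5 milk genes tested were lower with RL (median −0.72), and Lalba, Wap and Csn1s1 passed an adjusted p of 0.05 in limma at −1.50, −1.01 and −0.72. Csn2 passed by rank product at −0.47, and Csn3 was the least low at −0.23. Both lists kept their sign with median centering, at 0.59 and −0.81 relative to all genes. Both lists are given for scale, beside the members' median of 0.09.

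The levels of these genes differed between the tumors. For a member, the highest and lowest tumor lay a median of 0.46 apart on the log2 scale, and over all genes 0.27. The mean log2 intensity of both channels of an array, taken relative to the mean of the 3 arrays, had a median over the members of −0.24 in tumor 1, 0.22 in tumor 2 and 0.001 in tumor 3. Over all genes it was −0.004, 0.01 and −0.02. Of the 47 members, 41 were highest in tumor 2 and 38 were lowest in tumor 1, against 38.9% and 36.7% of all genes, and 42 were lowest there once the median of all genes was subtracted. Each tumor has 1 array, so this difference has no replicate and no test. The largest shift of a role was that of the G1/S switch in tumor 1, at −0.40 over 2 genes, followed by origin licensing at −0.33. Control cultures of tumors 1 and 3 carry the same dye, and there 40 of the 47 members were lower in tumor 1, by a median log2 difference of −0.29, as were 38 in the RL cultures, by −0.20; over all genes 48.9% and 47.7% were lower. The members at odds with this order included Pold2, Cdc6, Rpa1 and Tk1, which were not lowest in tumor 1.

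**Figure D5:**
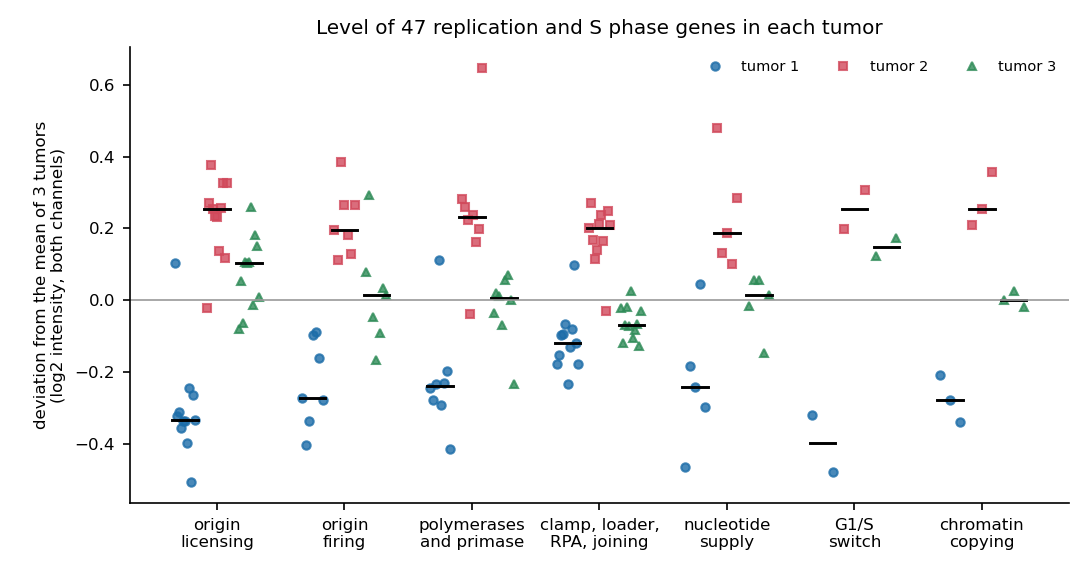
Deviation of each member's log2 intensity, averaged over both channels of an array, from its mean over the 3 tumors (y axis), by role (x axis); black lines are medians. Tumor 2 is highest for 41 of 47 members and tumor 1 lowest for 38, and each tumor has 1 array.

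Mitosis genes were ordered in the same way, at −0.35, 0.26 and 0.06, with 23 of 25 lowest in tumor 1. Milk genes were at 1.82, −0.64 and −1.17, with 5 of 5 highest in tumor 1 and 4 of 5 lowest in tumor 3. Epithelial markers were at −0.02, −0.27 and 0.35, fibroblast markers at −0.27, −0.46 and 0.91 and myeloid markers at 0.18, −0.30 and 0.09. In tumor 2, 7 of 11 epithelial, 5 of 9 fibroblast and 7 of 9 myeloid markers were lowest, and 1, 2 and 2 were highest. Of all 21721 genes, 6506 were lowest and 8447 highest in tumor 2, 7857 were highest in tumor 1 and 7248 were lowest in tumor 3. Tumor 1, whose cultures had the lowest levels of replication and mitosis genes and the highest levels of milk genes, was thus also the tumor with the largest ratios of RL over control for the RL response list and, with loess, for the members; with median centering the members' largest median relative to all genes was in tumor 2. With 3 tumors this was not tested.

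Markers of cell types were measured beside these lists. All 11 epithelial markers were tested, led in intensity by Krt18, with a median log2 change with RL of −0.02, and 0 passed the adjusted p of 0.05 in limma (0 at an unadjusted p under 0.05), with means from −0.33 for Krt18 to 0.06 for Cldn4. By tumor their median was 0.14, −0.17 and −0.07, with 9, 1 and 3 of the 11 above 0. Their summed intensity in RL over control went the other way in tumors 1 and 2, at 0.837, 1.07 and 0.759 in tumors 1, 2 and 3, beside Krt18 alone at log2 ratios of −0.73, 0.43 and −0.70. For the reference genes the ratio of sums was 0.740, 1.30 and 0.712. For the members this ratio was 1.20, 0.992 and 1.09. All 9 fibroblast markers were tested, led by Col1a1, and their sum was 9880 in the control culture of tumor 1, 4776 in that of tumor 2 and 18921 in that of tumor 3, with ratios of 0.826, 1.07 and 0.978 under RL. Single fibroblast genes had mean log2 changes from −0.19 for Pdgfra, lower at an unadjusted p under 0.05, to 0.09 for Fap, and 0 passed the adjusted p. All 9 myeloid markers were tested, led by Cd14, with ratios of sums of 1.10, 0.903 and 0.987 and mean log2 changes from −0.37 for S100a8 to 0.15 for Cd14. Cd14 alone was at 0.56 in tumor 1, where the median of the 9 was −0.12 and 2 were above 0. In limma 0 of the 9 passed the adjusted p of 0.05, and 2 were lower at an unadjusted p under 0.05, Cd68 (−0.23) and S100a8. Of the lymphoid markers 3 of 8 were tested, and Cd3d, Cd3g, Cd2, Cd8a and Cd79a were not well above background in any channel; Cd4 had the lowest mean of those tested, −0.04, and Cd3e the highest, 0.002. Of the endothelial markers 2 of 5 were tested, Pecam1 at −0.11 and Kdr at 0.10. The part of other cell types in the levels of the members was not tested.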

How the data were processed

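Each array carried 59305 probe spots with 55681 probes beside 3671 control spots. The authors deposited spot and local background intensities of both dyes, read with Agilent Feature Extraction 10.7.3.1 according to the submitters' processing notes, processed intensities, and log10 ratios of Cy5 over Cy3. The methods give log2 ratios as condition over control, but the deposited log2 table of the authors' normalized ratios was Cy5 over Cy3 when set against the scanner values (r of 0.965, 0.956 and 0.962 across genes), which is control over RL in tumors 1 and 3; its column medians were 0.00244, −0.0011 and 0.00069. Median intensities were corrected with normexp (offset 50) and normalized by loess, spatial loess (span 0.1) and Aquantile in limma 3.58.1 under R 4.3.3. The offset compresses ratios of dim genes. Outlier spots were left out, spots of 1 probe were averaged, and ratios were turned to RL over control. Probes were named by accession through the RefSeq table of GRCm38.p6 (28026 matched), and the array was designed on another build, so no probe coordinates are given. A gene took the value of its brightest probe among those well above background in every control channel or every RL channel. Ratios were tested against 0 with lmFit and eBayes and adjusted by Benjamini-Hochberg; per the labels, RL and control RNA of a tumor lie on the same array and are thus paired. The labels number the tumors and do not say whether each came from a different mouse, and the number of arrays limits the precision. From 54.6% to 56.2% of probes stood well above background, depending on the channel.

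The members, lists and markers were chosen with earlier results of these data known. One cell type marker of the design is not reported here. Values are given for Mcm2 to Mcm7, Pcna, E2f1, Ccne1 and Ccne2, for genes past an adjusted p or a proportion of false positives of 0.05, and for the highest and lowest gene of each role or list; other genes were named after their values were seen. The rank product used 1000 permutations. The programs were tested on simulated data. Alternatives were other background corrections, normalizations, probe filters and tests, the authors' log2 ratios, a dye term, no pairing and each tumor left out.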

Additional observations from a re-analysis of the deposited data

How the results depend on the processing

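With 3 arrays and small differences, the members' values depend on normalization and on single tumors. The members' median log2 change of 0.09 was between 0.08 and 0.11 in all settings other than median centering and the removal of a tumor. With each array centered on its median in place of loess it was −0.058 (0.053 relative to the median of all genes), 0 members were higher in all 3 tumors, 0 genes passed higher and 0 lower, and the sign turned for 29 of the 47 members, among the 19 named ones for Mcm2 (−0.12), Mcm4 (−0.12), Mcm7 (−0.13), Pcna (−0.0041), Ccne1 (−0.038), Dut (−0.012) and Chaf1b (−0.10). The median of all genes was then −0.11, and by tumor −0.41, 0.43 and −0.35, so counts and signs against 0 carry this shift. Relative to the median of all genes, 12 of the 47 members and 7.34% of all genes were higher in all 3 tumors, Pcna (0.11), Ccne1 (0.073), Dut (0.099) and Chaf1b (0.012) stayed above 0, and Mcm2 (−0.0062), Mcm4 (−0.011) and Mcm7 (−0.017) were just below it. Leaving out each tumor in turn gave a members' median from 0.04 to 0.14, from 0 to 7 members past the adjusted p, from 16 to 31 members higher and from 0 to 4 lower in both remaining tumors, and from 0 to 561 genes higher and from 1 to 921 lower past the adjusted p. The high counts, other than the 4 members lower without tumor 1, came without tumor 2, which leaves arrays of 1 dye order. Across all genes the log2 ratios of those arrays, of tumors 1 and 3, had a Pearson's r of 0.453, so the 31 is not particular to the members. The shares of all genes given above, 14.1% higher and 13.6% lower, are for agreement in 3 tumors. No such share is given for 2 tumors, so the member counts of these fits have no background beside them. In these fits Mcm2 ranged from −0.070 to 0.14, Mcm7 from −0.050 to 0.14, Chaf1b from −0.037 to 0.18, Tyms from −0.14 to 0.0037, Rfc1 from −0.18 to 0.16 and Pold2 from −0.092 to 0.043. With a dye term, 123 genes were higher and 161 lower, 1 member passed, and Pold2 was at 0.0063. Against 1 gene higher and 5 lower past the adjusted p, there were 6 and 12 without background correction, 0 and 0 with processed signals (where 1 member was lower in all 3 tumors), 0 and 3 with either no filter for dim probes or a stricter one, 1 and 3 with the mean over a gene's probes, 2 and 7 with the authors' log2 ratios, 14 and 29 with an intensity trend and robust moderation, and 37 and 51 by rank product. At an unadjusted p, 760 were higher and 778 lower, with 8 members. Without the pairing of cultures by tumor (no replicate block), 0 genes passed higher and 0 lower, and no call of a member changed. The causes were not tested. Of 323 values of 19 named members over the alternatives, 304 kept their sign and their side of the threshold, 14 turned sign and 5 passed the threshold, all 5 without tumor 2. With no Aquantile, either other filter for dim probes, the intensity trend or no pairing, these log2 changes were those of the main setting. The 304 thus include values of which only the p could move. The second probe of members with 2 probes was an alternative chosen after seeing the data. Tumor levels are means of both channels, so median centering and leaving out the spatial loess cannot move them, and keeping outlier spots or a stricter filter left them as they were. In the settings that moved them, which were no background correction, processed signals, no Aquantile, no filter for dim probes (48 members) and the mean over a gene's probes, 40 to 42 members were highest in tumor 2 and 38 to 42 lowest in tumor 1.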
